A study of Mus musculus with 32 samples.

Results

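The genes described here were listed as genes of fatty acid entry into mitochondria and oxidation there. They are 10 listed genes, Cpt1a, Cpt1c, Cpt2, Slc25a20, Acadvl, Acadl, Acadm, Hadha, Hadhb and Pdk4, of the 52636 gene entries in the deposited RNA-seq tables, and all 10 were found there. The list was selected on the measured level of Cpt1a, which stood 5-fold higher in induced neurons with the deletion than in control neurons, so values in that contrast are a description of what chose the list and carry no test. RNA came from 12 rRNA-depleted total RNA libraries, 3 in each of 4 groups. Deletion iNs were induced neurons of genotype Mirg(Delta/+) at day 10, and control iNs were induced neurons of genotype Mirg(fl/+) at day 10. Deletion ESCs and control ESCs were the embryonic stem cells of the same genotypes at day 0. The deletion removes the maternally inherited microRNA cluster for which Mirg is the host transcript, and the controls carry a floxed allele. All cells were hybrid mouse ESCs or their products. ESCs grew with serum and LIF, and iNs were made with doxycycline from a TetO-Ngn2 transgene in neuron differentiation medium, so medium, doxycycline and days in culture cannot be told apart from cell type. The labels do not say how many lines or clones each genotype came from, nor that replicates were separate cultures, so genotype cannot be told apart from line, and p-values cover no more than the variation among these libraries.

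Long-chain fatty acids are joined to coenzyme A in the cytosol and cross the mitochondrial membranes as carnitine esters. Carnitine palmitoyltransferase 1 on the outer membrane forms the ester, the carnitine-acylcarnitine carrier Slc25a20 moves it across the inner membrane, and Cpt2 gives the acyl-CoA back. Each turn of beta-oxidation then begins with an acyl-CoA dehydrogenase of matching chain length and, for long chains, goes on with the trifunctional protein of Hadha and Hadhb. Cpt1a is the widely expressed form and is inhibited by malonyl-CoA, Cpt1b is the form of muscle and heart, and Cpt1c is a brain form of the endoplasmic reticulum with little transferase activity. Neurons oxidise little fatty acid, and in brain the pathway is known mainly from astrocytes.

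Upstream sequences are shown for Cpt1a and Slc25a20, the genes that stood furthest from control in deletion iNs. The Hadha window, which overlaps most of the Hadhb window, is also shown. All were read from RefSeq on GRCm38.p6, the assembly of the files' build mm10. Each is the 250 bases before a gene's start, 5′ to 3′ on the gene's own strand, and capitals mark AGGTCA, the half-site letters of nuclear receptors such as the PPARs, GGGCGG, the letters known for Sp1, and CCAAT, each on either strand.
Cpt1a, chr19:3323051-3323300, plus strand: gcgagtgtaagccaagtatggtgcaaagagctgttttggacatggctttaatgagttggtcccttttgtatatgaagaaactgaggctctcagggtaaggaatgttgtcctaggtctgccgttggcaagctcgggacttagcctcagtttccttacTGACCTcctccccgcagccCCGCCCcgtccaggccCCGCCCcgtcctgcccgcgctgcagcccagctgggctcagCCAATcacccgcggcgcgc
Slc25a20, chr9:108661886-108662135, plus strand: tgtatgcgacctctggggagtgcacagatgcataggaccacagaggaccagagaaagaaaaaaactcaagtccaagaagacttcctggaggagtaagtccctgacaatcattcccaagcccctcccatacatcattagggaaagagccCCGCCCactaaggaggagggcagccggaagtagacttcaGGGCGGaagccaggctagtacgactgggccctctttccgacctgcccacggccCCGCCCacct
Hadha, chr5:30154981-30155230, minus strand: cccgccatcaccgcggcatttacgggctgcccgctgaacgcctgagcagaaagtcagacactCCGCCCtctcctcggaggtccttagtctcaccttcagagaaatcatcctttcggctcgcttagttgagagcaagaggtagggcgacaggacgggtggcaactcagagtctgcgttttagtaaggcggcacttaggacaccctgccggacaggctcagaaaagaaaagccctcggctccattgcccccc
The Cpt1a window lies before a start inside the annotated gene, downstream of its first base. The Cpt1a window held 1 AGGTCA, 2 GGGCGG and 1 CCAAT, the Slc25a20 window 3 GGGCGG only, and the Hadha window 1 GGGCGG only.

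AGGTCA was found in 4 of the 10 windows (Cpt1a, Cpt1c, Acadm and Acadvl), against 14.0% of the 32851 windows of all RefSeq genes. The full PPAR-type repeat, AGGTCA followed by any base and AGGTCA again, was in 0 of 10, against 0.0335% of all windows. GGGCGG was in 7 of 10, against 32.7%, CCAAT in 3 of 10, against 33.8%, and TATAAA in 0 of 10, against 12.4%. Hadha and Hadhb are read away from each other with 272 bases between their starts, and their windows overlap by 228 bases. These letters describe the windows and were not tested against any level.

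Each library held 14904735 to 21499106 counts. Mirg, which checks the genotype labels, had 4 counts summed over deletion iNs, against 1788 over control iNs. In ESCs it had 0 counts with the deletion, against 2393 in controls, at least 830-fold lower (floor of 3 counts over the group). The 15 pan-neuronal markers summed to 12840 to 13140 CPM in deletion iNs and 12260 to 12620 in control iNs, against 362 to 378 in deletion ESCs and 320 to 328 in control ESCs. The 10 pluripotency markers summed to 7.78 to 8.29 CPM in deletion iNs, 14.6 to 15.6 in control iNs, 2494 to 2652 in deletion ESCs and 2644 to 2756 in control ESCs. CPM are counts scaled to library size, with the sizes adjusted by the trimmed mean of M-values (TMM). Mitochondrially encoded genes held 2.45 to 3.602% of counts in deletion iNs and 3.42 to 4.38% in control iNs, against 1.47 to 1.83% in deletion ESCs and 1.99 to 2.27% in control ESCs.

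**Figure D1:**
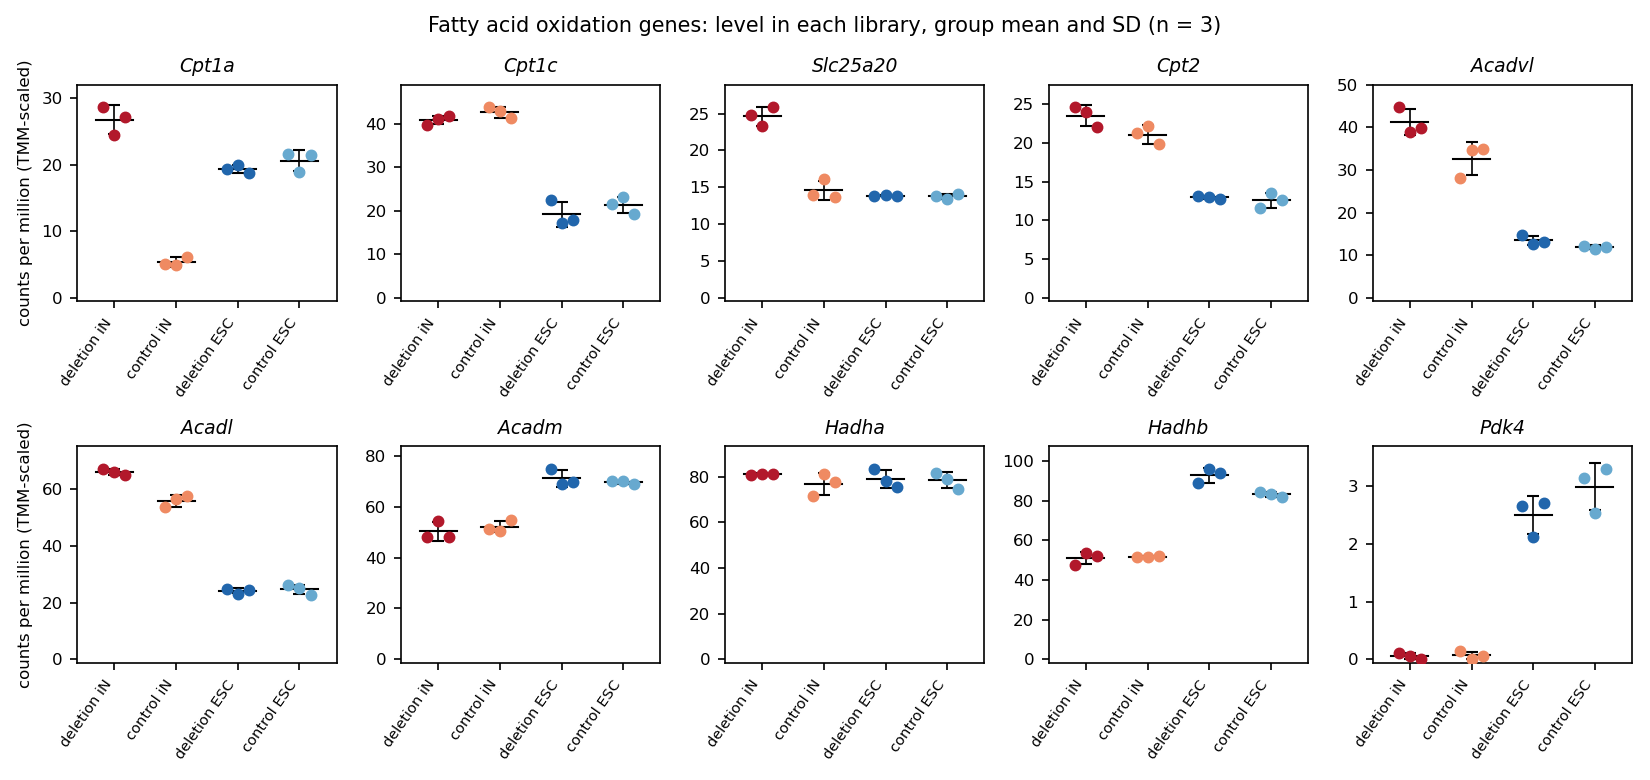
Level of each of the 10 genes in every library, in TMM-scaled CPM on linear axes with a separate scale per gene, for deletion iNs, control iNs, deletion ESCs and control ESCs from left to right. Points are libraries A, B and C, the wide bar is the group mean and the whisker the SD (n = 3). Cpt1a is low only in the 3 control iN libraries (4.91 to 6.16 CPM), and Pdk4 is near 0 in all 6 iN libraries.

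Cpt1a, the first transferase of the carnitine route, measured 28.6, 24.4 and 27.3 CPM in deletion iNs, 5.02, 4.91 and 6.16 CPM in control iNs, 19.3, 20.02 and 18.8 CPM in deletion ESCs, and 21.6, 18.8 and 21.5 CPM in control ESCs. Control iNs were thus the group apart, and every deletion iN library stood above every library of the other 3 groups. Deletion iNs averaged 26.8 ± 2.14 CPM and control iNs 5.37 ± 0.691 CPM (SD, n = 3 each), a log2 fold change of 2.32 ± 0.11 (SE). With the deletion in ESCs, where the list was not chosen, Cpt1a averaged 19.4 ± 0.623 CPM, against 20.6 ± 1.56 CPM in control ESCs (SD, n = 3 each). That log2 fold change of -0.11 ± 0.07 did not pass the test (edgeR quasi-likelihood, Benjamini-Hochberg adjusted p = 0.481), and the libraries overlapped. Between cell types, Cpt1a stood at a log2 fold change of 0.45 ± 0.08 in deletion iNs against deletion ESCs and of -1.95 ± 0.12 in control iNs against control ESCs. Both contrasts use iN libraries that chose the list, so for Cpt1a they are a description.

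Markers of other cell types were summed beside the 5-fold difference of Cpt1a between deletion and control iNs. The 13 glial markers summed to 153 to 160 CPM in deletion iNs and 129 to 136 CPM in control iNs, with Gfap at 0 counts in both. Fibroblast markers summed to 33.9 to 38.0 CPM in deletion iNs and 36.2 to 37.4 CPM in control iNs, endoderm markers to 1.73 to 2.07 CPM in deletion iNs and 1.18 to 1.69 CPM in control iNs, and muscle and heart markers to 0.475 to 0.711 CPM in deletion iNs and 0.201 to 0.407 CPM in control iNs. The glial, endoderm and muscle sums were higher in deletion iNs without overlap, and the fibroblast sums overlapped. The muscle and endoderm sums were near the floor. Of 8 muscle and heart markers 0 passed the filter on low counts, and of 8 endoderm markers 1 did, Gata4. Gata4 had 67 counts in deletion iNs and 42 in control iNs (edgeR adjusted p = 0.194). Within the glial list 3 of 7 tested genes rose and 2 fell, where 12.4% of all genes rose and 13.3% fell. S100b rose by 1.75 ± 0.27 (edgeR adjusted p = 2.25e-04), with 136 counts in deletion iNs and 37 in control iNs. Slc1a2, a glutamate transporter with the most counts of the list, rose by 0.46 ± 0.06 (edgeR adjusted p = 3.96e-05). It had 5351 counts in deletion iNs and 3556 in control iNs. Mbp rose by 0.22 ± 0.07 (edgeR adjusted p = 0.0314). Sox9 fell by 0.80 ± 0.24 (edgeR adjusted p = 0.0251) and Aldoc by 0.69 ± 0.09 (edgeR adjusted p = 6.61e-05). The 10 pluripotency markers summed to less in deletion iNs (7.78 to 8.29 CPM) than in control iNs (14.6 to 15.6 CPM). Of these markers 4 passed the filter on low counts, of which 3 fell and 0 rose, where 13.3% of all genes fell. Sox2 did not pass the filter and had 33 counts in deletion iNs and 6 in control iNs, with libraries that overlapped. The part of these markers' cells in the result was not tested. In bulk RNA, fewer cells of a type and less RNA per cell cannot be told apart.

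Cpt1c, the brain form, measured 39.8, 41.1 and 41.8 CPM in deletion iNs and 43.8, 43.0 and 41.3 CPM in control iNs, against 22.5, 17.1 and 17.9 CPM in deletion ESCs and 21.6, 23.1 and 19.4 CPM in control ESCs. It followed the cell type: all 6 iN libraries lay above all 6 ESC libraries, and the genotypes overlapped in both. It rose in iNs of both genotypes, by 1.08 ± 0.09 (log2, SE) in deletion iNs against deletion ESCs (edgeR adjusted p = 2.02e-07) and by 0.99 ± 0.08 in control iNs against control ESCs (edgeR adjusted p = 8.95e-08). The log2 fold change with the deletion was -0.06 ± 0.06 in iNs, given as a description, and -0.17 ± 0.11 in ESCs (edgeR adjusted p = 0.471).

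The makeup of the Cpt1 transcripts, as shares of summed TPM (RSEM's transcript level, a unit per length), therefore differed between the groups. Cpt1a made up 31.2, 26.8 and 28.4% of Cpt1a, Cpt1b and Cpt1c together in deletion iNs, against 6.58, 6.49 and 8.19% in control iNs. In ESCs it made up 32.5, 39.1 and 34.3% with the deletion and 32.3, 28.9 and 37.4% in controls, ranges that overlap. Cpt1c held the larger share throughout, with means of 70.5% in deletion iNs, 91.8% in control iNs, 57.5% in deletion ESCs and 60.1% in control ESCs. Cpt1b, the muscle form, was low, at 0.16 ± 0.0964 TPM in deletion iNs, 0.183 ± 0.11 TPM in control iNs, 0.873 ± 0.367 TPM in deletion ESCs and 0.983 ± 0.356 TPM in control ESCs (SD, n = 3 each). The shares in iNs rest on the Cpt1a contrast that chose the list.

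**Figure D2:**
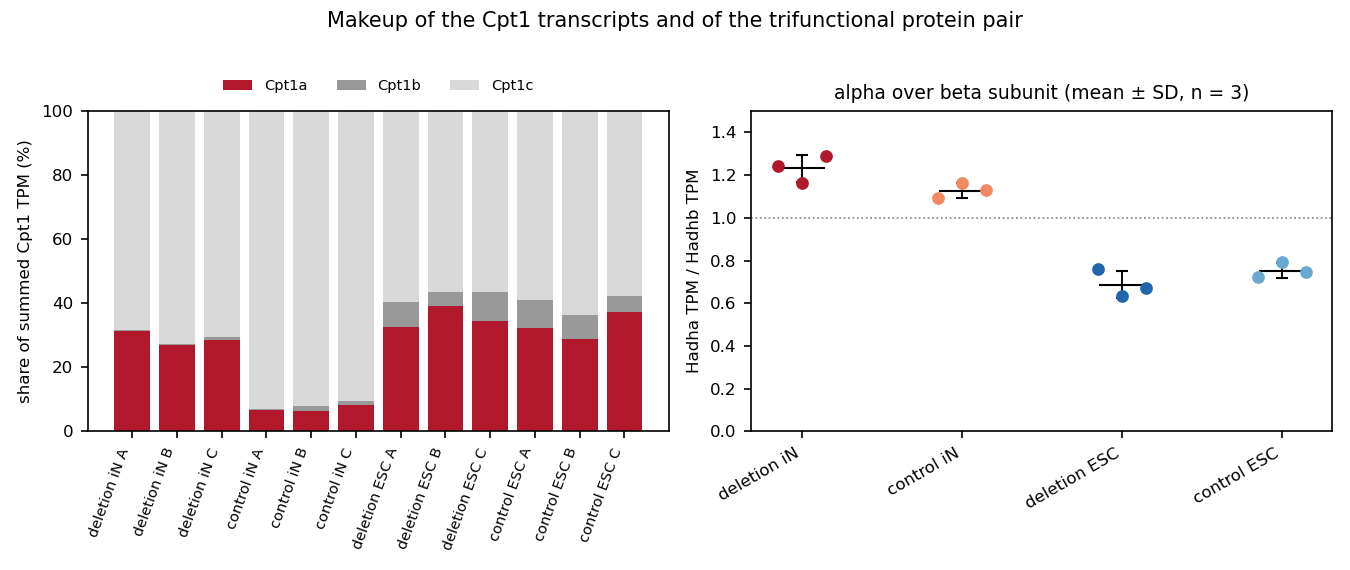
Left, share of each Cpt1 gene in the summed Cpt1 TPM (%) of every library, stacked with Cpt1a at the bottom. Cpt1a holds 26.8 to 31.2% in deletion iNs and 6.49 to 8.19% in control iNs. Right, ratio of Hadha to Hadhb TPM in each library with the group mean and SD (n = 3), above 1 in all iN libraries and below 1 in all ESC libraries.

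Slc25a20, the carrier of the inner membrane, measured 24.8, 23.3 and 25.8 CPM in deletion iNs and 13.9, 16.1 and 13.7 CPM in control iNs. ESCs held 13.8, 13.9 and 13.8 CPM with the deletion and 13.8, 13.3 and 14.1 CPM in controls. Deletion iNs were the group apart, and control iNs lay close to both ESC groups. The log2 fold change was 0.75 ± 0.09 (SE; 1.69-fold) in deletion iNs against control iNs, given as a description, and -0.01 ± 0.06 in deletion ESCs against control ESCs (edgeR adjusted p = 0.972). Slc25a20 rose in deletion iNs against deletion ESCs (0.82 ± 0.08, edgeR adjusted p = 4.8e-07) and did not pass the test in control iNs against control ESCs (0.08 ± 0.10, edgeR adjusted p = 0.445).

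Cpt2, the transferase of the inner membrane, measured 24.6, 24.0 and 22.03 CPM in deletion iNs, 21.2, 22.2 and 19.8 CPM in control iNs, 13.1, 13.1 and 12.7 CPM in deletion ESCs, and 11.6, 13.6 and 12.6 CPM in control ESCs. Genotypes overlapped in both cell types, with log2 fold changes of 0.16 ± 0.08 in iNs and 0.03 ± 0.08 in ESCs (edgeR adjusted p = 0.897 in ESCs). It rose in iNs by 0.85 ± 0.08 against ESCs with the deletion (edgeR adjusted p = 4.85e-07) and by 0.74 ± 0.09 in controls (edgeR adjusted p = 8.38e-06). Cpt1c and Cpt2 thus followed the cell type, while Cpt1a and Slc25a20 each had 1 iN group that stood apart.

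The 3 acyl-CoA dehydrogenases did not move together between cell types. Acadvl, for very long chains, measured 44.7, 39.0 and 39.9 CPM in deletion iNs, 28.2, 34.7 and 35.0 CPM in control iNs, 14.7, 12.7 and 13.0 CPM in deletion ESCs, and 12.2, 11.5 and 12 CPM in control ESCs. Acadl, for long chains, measured 67.2, 66.2 and 65.1 CPM in deletion iNs, 53.6, 56.6 and 57.8 CPM in control iNs, 24.8, 23.2 and 24.5 CPM in deletion ESCs, and 26.1, 25.1 and 22.7 CPM in control ESCs. Both were high in iNs, and in both the deletion iN libraries lay above the control iN libraries without overlap. Acadm, for medium chains, was high in ESCs instead, with 48.2, 54.5 and 48.3 CPM in deletion iNs, 51.4, 50.5 and 54.7 CPM in control iNs, 74.9, 68.9 and 69.7 CPM in deletion ESCs, and 70.1, 69.98 and 68.8 CPM in control ESCs.

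In deletion iNs against deletion ESCs, Acadvl rose by 1.60 ± 0.08 (log2, SE; edgeR adjusted p = 1.2e-09) and Acadl by 1.44 ± 0.06 (edgeR adjusted p = 7.74e-11), while Acadm fell by 0.52 ± 0.06 (edgeR adjusted p = 7.77e-06). In control iNs against control ESCs the changes were 1.45 ± 0.10 for Acadvl (edgeR adjusted p = 2.09e-08), 1.18 ± 0.07 for Acadl (edgeR adjusted p = 7.07e-09) and -0.42 ± 0.06 for Acadm (edgeR adjusted p = 1.3e-05). In deletion iNs against control iNs the log2 fold changes, given as a description, were 0.33 ± 0.08 for Acadvl, 0.24 ± 0.06 for Acadl and -0.05 ± 0.06 for Acadm. Without deletion iN library A, Acadvl stood at 0.27 and was no longer past the adjusted threshold. In ESCs the deletion left all 3 below the threshold, with the largest value for Acadvl (0.16 ± 0.08, edgeR adjusted p = 0.34), whose deletion libraries all lay above the control libraries.

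Hadha, the alpha subunit of the trifunctional protein, held nearly the same level in every group, with 80.6, 81.5 and 81.4 CPM in deletion iNs, 71.4, 81.2 and 77.9 CPM in control iNs, 83.5, 78.0 and 75.6 CPM in deletion ESCs, and 81.8, 78.9 and 74.9 CPM in control ESCs. Hadhb, the beta subunit, did not, with 47.6, 53.6 and 52.1 CPM in deletion iNs, 51.7, 51.6 and 52.2 CPM in control iNs, 88.8, 96.1 and 94.1 CPM in deletion ESCs, and 84.5, 83.4 and 81.9 CPM in control ESCs. Although the windows before the 2 genes overlap by 228 bases, only Hadhb passed the test between cell types. It fell by 0.88 ± 0.06 (log2) in deletion iNs against deletion ESCs (edgeR adjusted p = 2.27e-08) and by 0.69 ± 0.05 in control iNs against control ESCs (edgeR adjusted p = 4.57e-08). Hadha stood at 0.02 ± 0.05 (edgeR adjusted p = 0.69) and -0.03 ± 0.07 (edgeR adjusted p = 0.625) in the same comparisons. The ratio of Hadha to Hadhb TPM averaged 1.23 ± 0.0635 in deletion iNs and 1.127 ± 0.0355 in control iNs, against 0.687 ± 0.064 in deletion ESCs and 0.753 ± 0.0357 in control ESCs (SD, n = 3 each). The ratio did not overlap between cell types in either genotype (exact two-sided permutation p = 0.1 in each, the smallest that 3 against 3 libraries allow).

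Hadhb was also the member with the smallest p in ESCs with the deletion, 93.0 ± 3.797 CPM, against 83.2 ± 1.32 CPM in control ESCs (SD, n = 3 each). All 3 deletion ESC libraries lay above the controls. The log2 fold change of 0.14 ± 0.05 was past an unadjusted p of 0.05 and did not pass after adjustment over all genes (edgeR adjusted p = 0.182). In iNs its genotypes overlapped, with a log2 fold change of -0.02 ± 0.06, given as a description.

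Pdk4, the kinase that switches off pyruvate dehydrogenase and is a classical companion of fatty acid oxidation, was almost absent from iNs. It had 2, 1 and 0 counts in deletion iNs and 2, 0 and 1 counts in control iNs, against 54, 41 and 52 counts in deletion ESCs and 66, 42 and 62 counts in control ESCs. With 3 counts in each iN group, ESCs held 48.8 times as many scaled counts as iNs with the deletion (95% counting interval 16.4 to 240) and 53.6 times in controls (18.0 to 263). These intervals cover counting error only. In ESCs Pdk4 averaged 2.50 ± 0.329 CPM with the deletion, against 2.99 ± 0.405 CPM in controls (SD, n = 3 each), a log2 fold change of -0.28 ± 0.17 (edgeR adjusted p = 0.447). No comparison of the genotypes in iNs was possible at this depth, and Pdk4 did not pass the filter on low counts there.

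**Figure D3:**
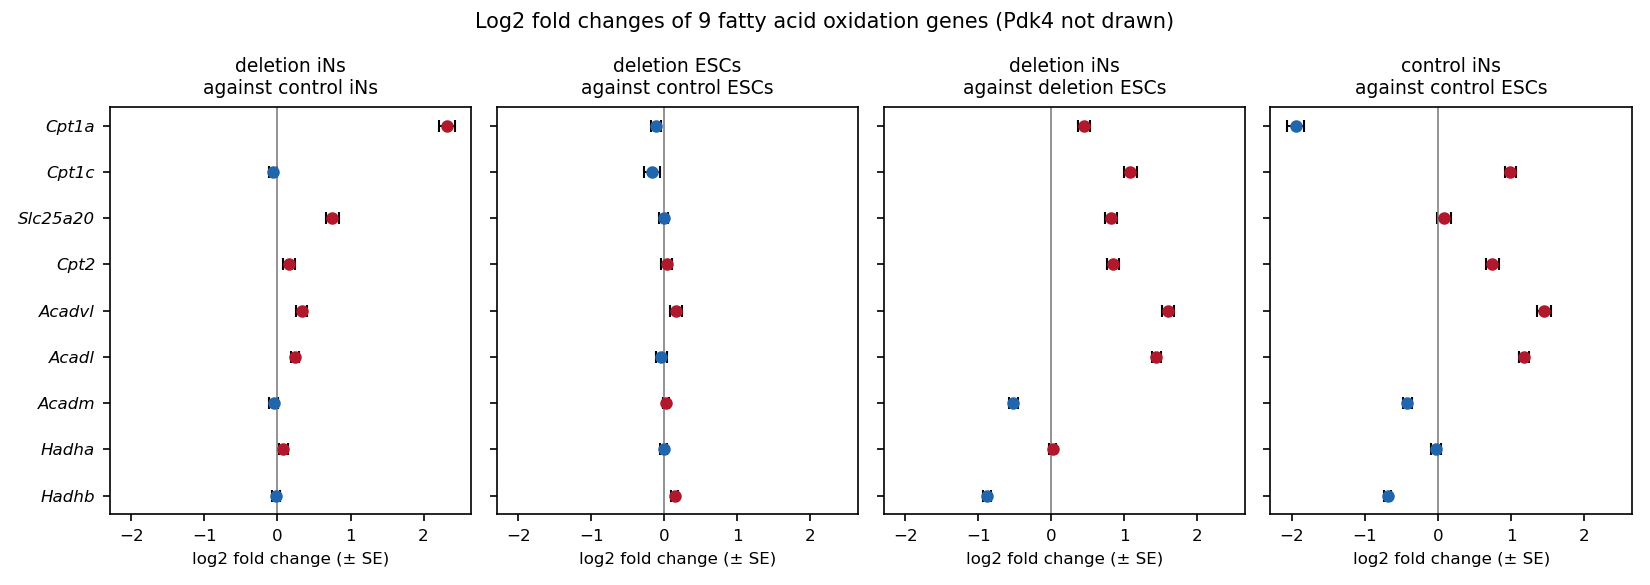
Log2 fold change with its standard error for 9 of the genes (Pdk4 is not drawn, since it had 3 counts in each iN group) in 4 comparisons. Red points lie above 0 and blue points below. Cpt1a is at 2.32 in deletion iNs against control iNs and at -0.11 in deletion ESCs against control ESCs.

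Counted over the list, 9 of the 10 genes passed the filter in deletion iNs against control iNs. Of these 4 were past the adjusted threshold as higher and 0 as lower, where 25.7% of the 15992 genes tested were past it (12.4% higher and 13.3% lower). The same 4 genes were those without overlap between the groups, where 20.4% of genes were higher without overlap. The median log2 fold change was 0.16 over the 9 genes and 0.004 over all genes. This contrast chose the list, so nothing is read from these counts.

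In deletion ESCs against control ESCs all 10 genes were tested and 0 passed after adjustment by edgeR, where 1.91% of 16157 genes did (1.37% higher and 0.545% lower). With the replicate letter as a block, edgeR called 518 genes higher and 500 lower, against 221 and 88 without it, and still 0 of the 10. DESeq2 called 0 of the 9 to which it gave an adjusted p, with a background of 3.08%. At an unadjusted p under 0.05 edgeR called 1 member (Hadhb), where 16.9% of genes passed. Acadvl and Hadhb lay higher without overlap between the groups, as 14.3% of genes did. The median log2 fold change was -0.01 over the 10 genes and -0.002 over all genes.

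Between cell types nearly all genes moved, and the list was no exception. In deletion iNs against deletion ESCs 6 of 10 rose and 3 fell, where 89.5% of 17486 genes were called (44.6% higher and 44.9% lower). In control iNs against control ESCs 4 rose and 4 fell, where 89.0% of 17214 genes were called (43.9% higher and 45.1% lower). Both counts include Cpt1a. Acadvl, Acadl, Cpt1c and Cpt2 rose, and Hadhb, Acadm and Pdk4 fell, in both genotypes. The 2 comparisons share no library with each other, and each shares its iN libraries with the contrast that chose the list.

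The difference between the deletion's log2 fold changes in iNs and in ESCs was 2.41 ± 0.14 for Cpt1a and 0.74 ± 0.11 for Slc25a20. These 2 of the 10 genes were past the adjusted threshold, where 13.5% of 18257 genes were (5.02% higher and 8.52% lower). Acadl stood at 0.27 ± 0.09, Hadhb at -0.18 ± 0.07 and Acadvl at 0.16 ± 0.13. The difference contains the contrast that chose the list and is a description for these genes.

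Per length, the order of the genes differed between cell types more than between genotypes. Acadm had the highest TPM in every group, 49.5 ± 2.50 in deletion iNs, 41.4 ± 5.15 in control iNs, 55.2 ± 13.1 in deletion ESCs and 55.3 ± 1.15 in control ESCs (SD, n = 3 each). In deletion iNs it was followed by Acadl (40.9 ± 2.32 TPM), Hadha (35.5 ± 3.001), Hadhb (28.8 ± 1.32), Acadvl (23.7 ± 3.24), Cpt1c (16.4 ± 0.907), Slc25a20 (16.1 ± 1.70), Cpt2 (13.7 ± 1.88), Cpt1a (6.74 ± 0.9001) and Pdk4 (0.0167 ± 0.0153). The libraries of Acadl and Hadha, of Cpt1c and Slc25a20, and of Slc25a20 and Cpt2 overlapped there. Control iNs kept the order down to Cpt1c, then held Cpt2 (11.1 ± 0.887 TPM) above Slc25a20 (8.13 ± 1.35 TPM), with Cpt1a at 1.15 ± 0.160 TPM. In that group Acadl and Hadha, Hadha and Hadhb, and Acadvl and Cpt1c overlapped.

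In both ESC groups Acadm was followed by Hadhb and then Hadha, at 44.7 ± 2.63 and 30.8 ± 4.33 TPM in deletion ESCs and 40.2 ± 1.09 and 30.3 ± 0.605 TPM in control ESCs. Acadl was next (12.8 ± 1.25 and 12.9 ± 1.00 TPM). Slc25a20, Cpt1c, Cpt2 and Acadvl lay between 5.90 and 8.27 TPM in both ESC groups, each overlapping its neighbour, and Cpt1a and Pdk4 were the lowest. The median over the 10 genes was 20.2 TPM in deletion iNs and 16.0 TPM in control iNs, against 7.28 TPM in deletion ESCs and 8.12 TPM in control ESCs. TPM is not TMM-scaled, and Acadm, whose TPM mean was higher in deletion iNs than in control iNs, was lower there in CPM (50.3 ± 3.62 in deletion iNs and 52.2 ± 2.18 in control iNs).

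The genes whose levels over the 12 libraries lay nearest to those of Cpt1a were Sall3, Grik3, Arhgef15, Rgs16 and Espn, by the root mean square distance of centred log2 CPM among 11109 genes. Sall3, a zinc-finger transcription factor, was nearest at 0.178, where the median gene lay at 1.08. It averaged 23.3 ± 2.86 CPM in deletion iNs and 5.35 ± 0.859 CPM in control iNs, with 13.7 ± 0.271 CPM in deletion ESCs and 16.6 ± 1.04 CPM in control ESCs (SD, n = 3 each). The other 4 lay at 0.392 to 0.443. Slc25a20 was at rank 738 for Cpt1a. For Pdk4 the nearest were Umps, Herc4 and Dhx16, but a pseudocount of 0.5 CPM sets the Pdk4 values in iNs, so its distances say little.

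Around these genes, the wider lists did not move as one in deletion iNs. Over these 8 lists 13 of 84 tested genes rose and 13 fell, where 12.4% of all genes rose and 13.3% fell (25.7% together), shares against which each list's count below is to be read. Of 10 tested genes of fatty acid uptake and activation 5 fell and 0 rose, a list whose median log2 fold change was -0.16. Among them were Acsl5, Acsl3 and Acsl4, long-chain acyl-CoA synthetases, which join fatty acids to coenzyme A. Acsl5 fell by 0.68 ± 0.06 (29.6 ± 0.992 CPM in deletion iNs, 47.5 ± 1.73 CPM in control iNs, edgeR adjusted p = 1.82e-06). Acsl3 fell by 0.56 ± 0.07 (edgeR adjusted p = 5.85e-05) and Acsl4 by 0.46 ± 0.05 (edgeR adjusted p = 1.58e-05). The synthetases Acsl1 (0.07 ± 0.06, edgeR adjusted p = 0.372) and Acsl6 (0.10 ± 0.06, edgeR adjusted p = 0.283) did not pass. The transporter Slc27a2 fell by 1.15 ± 0.35 (edgeR adjusted p = 0.0264) at 26 counts in deletion iNs and 53 in control iNs. Slc27a2 passed in 1 of the 6 fits that left out a library, with values of -1.45 to -0.94 over all alternatives, and did not pass by DESeq2 (adjusted p = 0.131). Of 5 further carnitine genes 1 rose, Crat, the carnitine acetyltransferase (0.35 ± 0.09, edgeR adjusted p = 0.00715).

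Of 15 other genes of mitochondrial beta-oxidation 2 rose and 2 fell, a share near the 25.7% of all genes. Acaa2, the thiolase of the last step, rose by 0.37 ± 0.08 (edgeR adjusted p = 0.0024) and Etfb, a subunit of the electron transfer flavoprotein, by 0.28 ± 0.09 (edgeR adjusted p = 0.0367). Eci2, an enoyl-CoA isomerase, fell by 0.25 ± 0.07 (edgeR adjusted p = 0.0188) and Echs1, the short-chain hydratase, by 0.24 ± 0.06 (edgeR adjusted p = 0.00878). Of the fits that left out 1 library, Etfb passed in 2 of 6, Eci2 in 3 of 6 and Echs1 in 5 of 6, with values of 0.22 to 0.33, -0.33 to -0.21 and -0.27 to -0.22 over all alternatives. Etfb also did not pass by DESeq2 (adjusted p = 0.0929) or in edgeR with the replicate block (adjusted p = 0.0589). Of 11 peroxisomal genes 2 rose, the transporter Abcd2 (0.32 ± 0.10, edgeR adjusted p = 0.0282) and the thiolase Acaa1a (0.24 ± 0.08, edgeR adjusted p = 0.0277). Abcd2 passed in 3 of 6 such fits (0.26 to 0.44) and Acaa1a in 2 of 6 (0.21 to 0.27). Acaa1a also did not pass by DESeq2 (adjusted p = 0.0886) or in edgeR with the replicate block (adjusted p = 0.0537). Acaa1a has the near-identical copy Acaa1b, so its counts are uncertain. Of 4 ketone body genes 1 rose, Oxct1, which lets cells use ketone bodies (0.32 ± 0.06, edgeR adjusted p = 8.37e-04).

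**Figure D4:**
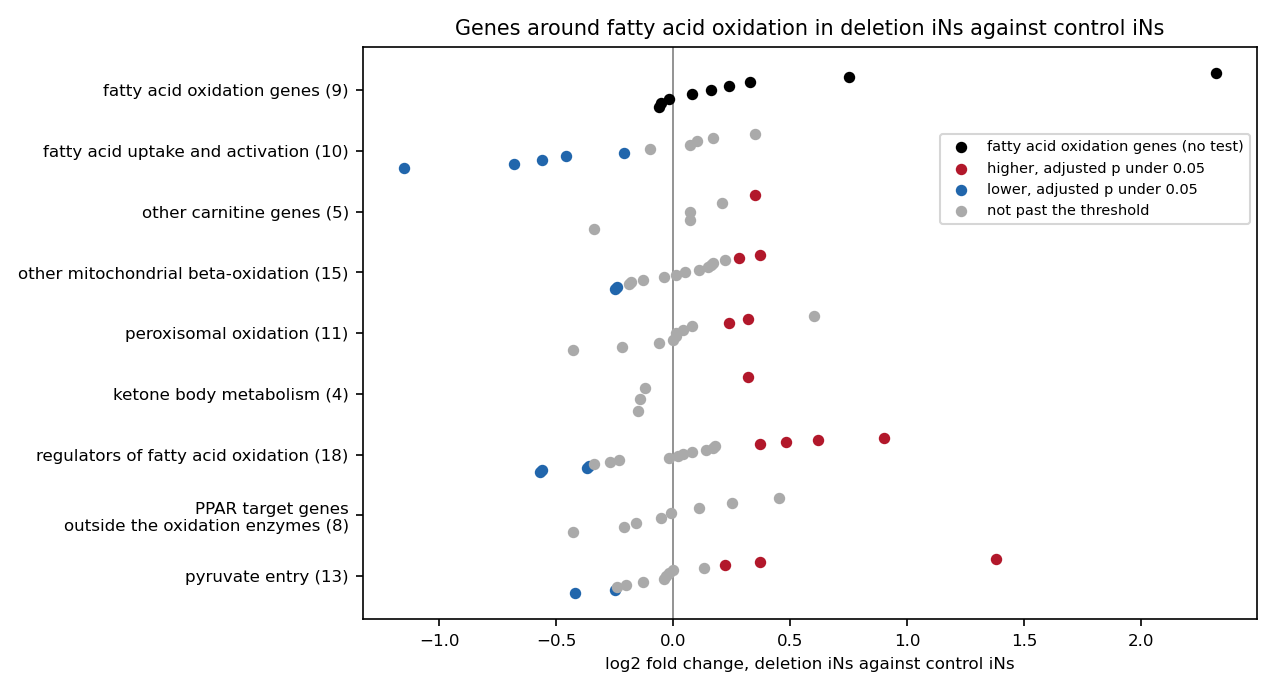
Log2 fold change in deletion iNs against control iNs of each tested gene, by list, with the number tested in brackets. The 9 fatty acid oxidation genes are black because this contrast chose them. In the other lists red is higher, blue is lower (edgeR adjusted p under 0.05) and grey did not pass. Of the uptake and activation genes 5 of 10 are blue and 0 red.

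Of 18 regulators of fatty acid oxidation 4 rose and 4 fell, where 12.4% of all genes rose and 13.3% fell. The nuclear receptor Pparg rose by 0.90 ± 0.32 (edgeR adjusted p = 0.0498) and the transcription factor Foxo1 by 0.62 ± 0.21 (edgeR adjusted p = 0.0424). The nuclear receptor Ppara, known as the main activator of the pathway in liver, fell by 0.57 ± 0.18 (edgeR adjusted p = 0.028). Each of these 3 passed in 1 of the 6 fits that left out a library and in none by DESeq2 (adjusted p = 0.113, 0.146 and 0.104). In edgeR with the replicate block Pparg (adjusted p = 0.0511) and Foxo1 (adjusted p = 0.0509) did not pass, nor did Pparg (adjusted p = 0.0788) and Ppara (adjusted p = 0.0877) with all 12 libraries in 1 edgeR fit. Lpin1, a coactivator and phosphatidate phosphatase, fell by 0.56 ± 0.09 (edgeR adjusted p = 2.2e-04). Foxo3 (0.48 ± 0.08, edgeR adjusted p = 4.41e-04) and Rxrb (0.37 ± 0.09, edgeR adjusted p = 0.00581) rose as well. Acaca (-0.36 ± 0.05, edgeR adjusted p = 6.69e-05) and Ppard (-0.37 ± 0.10, edgeR adjusted p = 0.0149) fell as well. Of 8 tested PPAR target genes outside the oxidation enzymes 0 passed, also at an unadjusted p under 0.05, where 37.4% of all genes passed. DESeq2 called 0 of them.

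Of 13 genes of pyruvate entry 3 rose and 2 fell, where 25.7% of all genes were called. Pdk2, another pyruvate dehydrogenase kinase, rose by 1.38 ± 0.25 (edgeR adjusted p = 6.87e-04), with 7.45 ± 0.966 CPM in deletion iNs and 2.79 ± 1.36 CPM in control iNs (SD, n = 3 each). The opposing phosphatases moved apart, Pdp1 rising by 0.37 ± 0.07 (edgeR adjusted p = 0.00177) and Pdp2 falling with a log2 fold change of -0.42 ± 0.08 (edgeR adjusted p = 0.00127). Dld, the shared E3 subunit of the dehydrogenase complexes, fell by 0.25 ± 0.06 (edgeR adjusted p = 0.00524). All lists were chosen with earlier results of these libraries known.

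With the deletion in ESCs, 2 of the 83 genes tested in these 8 lists passed, a share near the 1.91% of all genes. Plin2, a coat protein of lipid droplets and a PPAR target, rose by 0.51 ± 0.08 (edgeR adjusted p = 0.0146), with 32.7 ± 2.94 CPM in deletion ESCs and 22.7 ± 1.79 CPM in control ESCs. Foxo3 fell by 0.23 ± 0.04 (edgeR adjusted p = 0.0371). Of the 6 fits that left out a library Plin2 passed in 3 and Foxo3 in 1, with values of 0.44 to 0.57 and -0.26 to -0.21 over all alternatives. Foxo3 also did not pass with all 12 libraries in 1 edgeR fit (adjusted p = 0.178).

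Between control iNs and control ESCs the lists around the 10 genes moved in both directions, with large changes. Over the 8 lists 48 of 85 tested genes rose and 26 fell, where 43.9% of all genes rose and 45.1% fell (89.0% together). Of 18 regulators 8 rose and 6 fell. Ppargc1a, the coactivator of mitochondrial genes, had 1896 counts in control iNs and 0 in control ESCs. That was at least 668-fold higher in iNs (floor of 3 counts over the group). Ppara rose by 4.87 ± 0.31 (edgeR adjusted p = 7.67e-09), with 205 counts in control iNs and 7 in control ESCs, near the floor. Foxo1 fell by 5.12 ± 0.11 (edgeR adjusted p = 2.33e-13) and Acacb, which makes the malonyl-CoA that inhibits Cpt1, by 3.35 ± 0.16 (edgeR adjusted p = 4.42e-10). Acacb was low, at 1.67 ± 0.427 CPM in control iNs and 17.3 ± 0.961 CPM in control ESCs (SD, n = 3 each). Acaca, which also makes malonyl-CoA, was higher in iNs, at 253 ± 1.08 CPM in control iNs and 191 ± 3.91 CPM in control ESCs. Of 11 peroxisomal genes 8 rose and 2 fell, among them Abcd2 (4.85 ± 0.16, edgeR adjusted p = 1.04e-11). All 4 tested ketone body genes rose, led by Bdh1 (3.10 ± 0.08, edgeR adjusted p = 1.42e-12) and Acat1 (2.82 ± 0.08, edgeR adjusted p = 3.6e-12).

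Of 15 other mitochondrial beta-oxidation genes 8 rose and 4 fell in that comparison, and the counts were 6 and 4 of 10 for uptake and activation, 3 and 3 of 6 for further carnitine genes, 9 and 3 of 13 for pyruvate entry and 2 and 4 of 8 for PPAR targets. Eci1, an enoyl-CoA isomerase, fell by 2.88 ± 0.14 (edgeR adjusted p = 4.27e-10), while Etfdh, which passes electrons to the respiratory chain, rose by 1.74 ± 0.08 (edgeR adjusted p = 2.44e-10). Acsl6, a synthetase of brain, rose by 4.88 ± 0.11 (edgeR adjusted p = 2.31e-13), and Slc27a2 fell by 5.33 ± 0.11 (edgeR adjusted p = 1.5e-13). Mpc1 and Mpc2, the subunits of the mitochondrial pyruvate carrier, rose by 2.34 ± 0.10 (edgeR adjusted p = 1.55e-10) and 1.81 ± 0.09 (edgeR adjusted p = 9.55e-10). Acot1, a thioesterase and PPAR target, fell by 5.2 ± 0.16 (edgeR adjusted p = 5.55e-12).

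Ago2, the protein that holds microRNAs on their targets, was mapped in control iNs only, by crosslinking and immunoprecipitation with HA-tagged Ago2. Of the 9 members tested in iNs, 1 (Cpt1c) held a deposited region on its own strand, where 38.8% of the 10695 genes with a known strand did. Its 3 regions had authors' log2 folds of 2.05, 3.15 and 2.80 over input and of -0.50, 0.42 and -0.32 over the immunoprecipitate of untagged Ago2. None of the members was in the authors' deposited table of regions matched to microRNAs of the deleted cluster, where 3.84% of 15981 genes tested in iNs were. In the wider lists Prkaa1, a catalytic subunit of the AMP-activated kinase, Ucp2, an uncoupling protein, and Pdhx, a part of the pyruvate dehydrogenase complex, were in that table. Their regions had authors' log2 folds over untagged Ago2 of 1.31, 1.21 and 1.69, with −log10 p of 0.75, 0.46 and 1.31. None of these genes passed in deletion iNs against control iNs (edgeR adjusted p = 0.679 for Prkaa1, 0.151 for Ucp2 and 0.0883 for Pdhx).

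Acadvl overlaps the microRNA gene Mir324 on the other strand, and the 3 Ago2 regions inside Acadvl lay on that strand, 2 of them in the hairpin. The mature sequences, from RefSeq on GRCm38.p6 and shown because these 2 regions begin at their first bases, have the seed (bases 2 to 8) in capitals.
mmu-miR-324-5p, chr11:70012060-70012082, plus strand: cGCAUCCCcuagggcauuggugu
mmu-miR-324-3p, chr11:70012095-70012114, plus strand: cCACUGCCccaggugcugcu
The region at chr11:70012060-70012061 had an authors' log2 fold of 4.08 over untagged Ago2 (−log10 p 7.71), and the region at chr11:70012095-70012102 one of 2.99 (−log10 p 1.41). In the authors' deposited table of small RNAs, miR-324-5p had a log2 fold change of 0.36 in deletion iNs against control iNs (adjusted p = 0.0516) and of 1.29 in control iNs against control ESCs (adjusted p = 4.84e-11). RNA-seq strand handling is not given in the sources used here, so reads from the strand of Mir324 could count towards Acadvl.

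In the authors' deposited DESeq2 table of deletion iNs against control iNs the log2 fold changes were 2.32 for Cpt1a, 0.75 for Slc25a20, 0.33 for Acadvl and 0.23 for Acadl. In the authors' deposited table of ESCs 0 of the 10 genes had an adjusted p under 0.05, and the smallest was 0.1 for Hadhb (log2 fold change 0.16).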

How the data were processed

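The 12 RNA-seq libraries were given as 1 table each with expected counts and TPM per gene as RSEM makes them, per the file headers. Tools listed in the submitters' processing notes, with no role given, are RSEM 1.2.30, STAR 2.4.1d, cutadapt 1.4.2 and DESeq2, and the build is mm10. The strand setting and the annotation release are not given in the sources used here. The authors' deposited tables of comparisons give, per the file headers, the log2 fold change and p-values of each gene beside a signal, its normalised count averaged over libraries. Their deposited lists of Ago2 regions hold a log2 fold and a −log10 p per region, and their replicates were not kept apart. The small RNA libraries themselves were not analysed here.

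Expected counts were rounded. The test was edgeR's quasi-likelihood F test (edgeR 4.0.16, R 4.3.3) after TMM scaling and filterByExpr at 10 counts, adjusted by Benjamini-Hochberg over all genes tested with a threshold of 0.05. It used the 6 libraries of each comparison and all 12 for the difference between cell types. The standard error (SE) is the log2 fold change divided by the square root of F. Entries without a gene name held 0.0397% of counts and were left out. The fit was tested on simulated data. Alternatives were DESeq2 1.42.0 (its size factors and its Wald test), no filter, all 12 libraries in 1 fit, removal of mitochondrial, 7S and rRNA-like genes, a replicate block and each library left out. Posterior mean counts, and levels in CPM per kilobase, were added after seeing the data. The 10 genes, the 14 lists beside them and the rule for naming genes (all 10, at most 4 genes past the threshold per list by size of change, the 5 genes nearest to Cpt1a and 3 nearest to Pdk4 among genes averaging 2 or more in log2 CPM) were chosen with earlier results of these data known. Levels of markers are summed CPM. Some markers and regulators are given beyond the rule for naming genes.

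Each group has libraries A, B and C. Between deletion and control ESCs, deviations from the group mean correlated within each letter (r = 0.35, 0.107 and 0.137, over genes that are not independent). As every r was over 0.1, the letters may pair these libraries. Deletion ESC library C with control ESC library B also stood over 0.1 (r = 0.121), so the pairing is not certain. The values given come from the fit without the block, and the blocked value stands beside a result where it changes the call. In the other comparisons not every letter was above 0.1. Promoter and microRNA sequences and gene positions came from RefSeq tables on GRCm38.p6, and all 10 genes matched by symbol. The strand of a gene was known from those tables for 10695 of the 15992 genes tested in iNs.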

Additional observations from a re-analysis of the deposited data

Results flagged for a closer look

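The deletion's log2 fold change differed between iNs and ESCs for 16 of 87 genes tested in the 8 lists beside the 10 genes. The call is by the test of the difference itself (5 higher and 11 lower). Of these 16 genes, the 14 that the rule of at most 4 genes per list names are given. For the genes selected on the iN contrast the values are a description: Cpt1a stood at 2.41 and Slc25a20 at 0.74. Named genes with a higher log2 fold change in iNs than in ESCs were Foxo3 (0.70), Foxo1 (0.57), Acaa1a (0.33) and Oxct1 (0.26). Named genes with a lower one were Slc27a2 (-1.33), Acsl5 (-0.82), Pdp2 (-0.74), Acsl3 (-0.73), Acaca (-0.50), Acsl4 (-0.48), Ppard (-0.42), Plin2 (-0.41), Bdh1 (-0.40) and Dld (-0.34). For these 14 genes every edgeR adjusted p was under 0.05, and 13.5% of all genes tested were past that threshold. Acaa1a, Foxo1, Oxct1, Plin2, Ppard, Bdh1 and Dld did not pass in every fit that left out 1 library. Of 12 such fits Acaa1a passed in 6, Foxo1 in 4, Oxct1 in 4, Plin2 in 5, Ppard in 2, Bdh1 in 7 and Dld in 10. Acaa1a and Foxo1 did not pass by DESeq2, and Acaa1a and Ppard did not pass with no filter on low counts. Groups of 3 libraries were too small to test for a single library far from the rest.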

How the results depend on the processing

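The calls of the 10 genes held under the alternatives run in each comparison, except that Acadvl was no longer past the threshold in iNs without deletion iN library A (log2 fold change 0.27) and that Acadl became past it in the difference between cell types without control ESC library C (0.32) or without mitochondrial, 7S and rRNA-like genes (0.27). The replicate block changed no call of the 10 genes, and ended those of Pparg, Foxo1, Etfb and Acaa1a in iNs. Over all genes, the ESC deletion comparison called 221 higher and 88 lower, but 518 and 500 with the replicate block, and 187 lower with no filter. Leaving out 1 library gave 69 to 215 higher and 18 to 104 lower there, and 909 to 1563 lower in the difference between cell types (1555 with all). The cause was not tested. Signs turned for log2 fold changes near 0: in ESCs Slc25a20 stood at 0.01 and Hadha at 0.01 with all 12 libraries in 1 fit, and Hadha at 0.00 with no filter. With 1 library left out, values ran between -0.05 and 0.03 for Hadhb in deletion iNs against control iNs. In ESCs with the deletion they ran between -0.03 and 0.09 for Cpt2, -0.03 and 0.01 for Slc25a20, -0.01 and 0.03 for Acadm, and -0.04 and 0.02 for Hadha. In control iNs against control ESCs they ran between -0.01 and 0.14 for Slc25a20 and -0.08 and 0.04 for Hadha, and in deletion iNs against deletion ESCs between -0.02 and 0.07 for Hadha. The difference between cell types ran between -0.66 and 1.09 for Pdk4, which rests on 3 counts in each iN group. Median levels in CPM per kilobase were 8.38 in deletion ESCs and 9.16 in control ESCs, in place of 7.28 and 8.12 TPM. With regions of a log2 fold and −log10 p of at least 3 over untagged Ago2, 0 of the 10 genes held one on its own strand and 1 on either strand, in place of 1 and 2. The share of all genes that held such a region is not given here, so nothing is read from these counts. Counted over all named genes and comparisons, 17 values lost the call under other alternatives and 90 with 1 library left out, with the direction kept.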

Other observations

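Beside the comparisons above, the lists around fatty acid oxidation also differed between deletion iNs and deletion ESCs. Ppargc1a had 2342 counts in deletion iNs and 0 in deletion ESCs, at least 783-fold higher. Pparg rose by 4.22 ± 0.58 on the log2 scale (edgeR adjusted p = 1.64e-05), Pdk2 by 2.43 ± 0.20 (edgeR adjusted p = 1.13e-07) and Crat by 1.90 ± 0.08 (edgeR adjusted p = 1.75e-10). The value for Pparg rests on 119 counts in deletion iNs and 6 in deletion ESCs, near the floor. Acadsb, an acyl-CoA dehydrogenase of short branched chains, rose by 1.32 ± 0.07 (edgeR adjusted p = 2.4e-09). Acsbg1, an acyl-CoA synthetase, had 0 counts in deletion iNs and 51 in deletion ESCs, at least 16.9-fold lower in iNs (floor of 3 counts over the group). Slc27a2 fell by 6.67 ± 0.14 (edgeR adjusted p = 1.59e-13). Of 11 peroxisomal genes tested 8 rose and 2 fell, and of 4 ketone body genes 4 rose. Over the 8 lists 44 of 86 tested genes rose and 32 fell, where 44.6% of all genes rose and 44.9% fell (89.5% together).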
